A study of Mus musculus with 2 samples.

Results

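The Ifit family of mouse genes encodes interferon-induced proteins with tetratricopeptide repeats, and 5 members were examined by name: Ifit1, Ifit1bl1, Ifit2, Ifit3 and Ifit3b. They were 5 of the 55357 genes in both matrices, and each was found by its symbol and its Ensembl identifier. The study sequenced RNA of single CD45+ cells sorted from subcutaneous tumours of MC38, a mouse colon adenocarcinoma line, grown in C57BL/6 mice. One library came from UEIS KI mice and one from UEIS LSL mice, which serve as the comparison. The labels do not expand these names, do not say which cells carry the allele, give no age, and do not say whether animals were pooled. With 1 library per group no test between groups was possible, so every difference is between these 2 libraries, and all intervals are exact 95% intervals that cover counting error only.

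Ifit genes are nearly silent in resting cells and are switched on by type I and type III interferons, through a transcription factor complex that includes IRF9, or directly by IRF3 when a cell senses foreign nucleic acid. Both routes act on the interferon-stimulated response element in the promoter. IFIT1 binds RNA whose cap lacks ribose methylation and blocks its translation. Human IFIT2 and IFIT3 partner with IFIT1 in complexes, and human IFIT2 binds RNA rich in A and U. The mouse proteins were not examined here. Ifit3b is a close copy of Ifit3. In tumours the family is widely read as a mark of interferon sensing.

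The members lie side by side on chromosome 19 of GRCm38, within 99.3 kb. In GENCODE vM21, Ifit2 (ENSMUSG00000045932) spans 34550694 to 34576419 on the plus strand. Ifit3 (ENSMUSG00000074896) spans 34583531 to 34588731 on the plus strand, and Ifit1bl1 (ENSMUSG00000079339) spans 34592891 to 34601956 on the minus strand. Ifit3b (ENSMUSG00000062488) spans 34607970 to 34613401 and Ifit1 (ENSMUSG00000034459) spans 34640871 to 34650009, both on the plus strand. No other annotated gene overlapped any of the 5. One further family gene in the stretch, Ifit1bl2, was not on the list.

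Promoter stretches are shown because windows of 4 of the 5 members held the core of the element through which interferon acts. Whether these matches bear on the levels below was not tested. The stretches come from RefSeq windows of GRCm38.p6 that run from 250 bases before to 50 bases after a start site. They are read along the gene's own strand. The motif searched was the core of the element, GAAA, any 2 bases and GAAA again, on both strands, which reads as 2 runs of TTTC from the opposite strand. Its matches are in capitals.
Ifit1, chr19:34640755-34640863, plus strand: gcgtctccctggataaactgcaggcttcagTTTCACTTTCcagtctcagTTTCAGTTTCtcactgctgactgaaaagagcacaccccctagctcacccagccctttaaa
Ifit3, chr19:34583343-34583452, plus strand: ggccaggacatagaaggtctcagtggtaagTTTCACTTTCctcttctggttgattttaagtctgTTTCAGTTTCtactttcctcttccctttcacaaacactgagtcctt
Ifit1bl1, chr19:34601994-34602102, minus strand: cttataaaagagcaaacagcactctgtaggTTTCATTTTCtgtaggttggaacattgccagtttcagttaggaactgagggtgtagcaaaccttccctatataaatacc
The corresponding stretch of Ifit3b, chr19:34607739-34607848, was identical to that of Ifit3 in every one of its 110 bases, and the whole windows of the pair were 99.2% identical over 260 aligned bases.

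Ifit1, Ifit3 and Ifit3b had 2 matches each and Ifit1bl1 had 1 in each of its 2 windows. Neither of the 2 windows of Ifit2 held these letters, which says nothing beyond those windows. Of all 32851 promoter windows, 3.44% held the motif. The gamma-activated site, searched as TTCNNNGAA, which is its own reverse complement, was in 1 window of Ifit2 and in no window of the other members, against 8.30% of all windows. No match of one motif overlapped a match of the other in these windows.

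How far the copies can be told apart limits what follows. The longest transcripts of Ifit3 and Ifit3b were 98.0% identical over 1697 aligned bases, and 34.7% of the 1655 stretches of 91 bases in Ifit3 also occurred in Ifit3b. Between Ifit1 and Ifit1bl1, identity was 73.0% and no such stretch was shared. Ifit1bl2 shared 102 of the 2566 stretches of Ifit1 (3.98%) and 20 of the 2110 of Ifit1bl1. The split between Ifit3 and Ifit3b is therefore uncertain, while that between Ifit1 and Ifit3 is not affected by shared stretches of this length.

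The libraries held 99404988 UMIs (unique molecular identifiers, each counting 1 captured RNA molecule) in 9734 barcodes for UEIS KI and 92764697 in 9527 for UEIS LSL. After quality limits and removal of called doublets, 8685 and 8646 cells remained, with median depths of 8642 and 7892 UMIs. The libraries shared 34 barcode sequences. Cells were put into classes by marker genes, and a class name means resemblance to its markers. Macrophages had at least 6 of 12 macrophage markers and at least 30 UMIs of C1qa, C1qb and C1qc per 10000, while C1q-low myeloid cells had the markers with less C1q. Monocyte, cDC2 (type 2 conventional dendritic cell), T cell and fibroblast gates also held at least 100 cells per library. Fibroblast-gated cells went against the sort, with Ptprc, the gene of CD45, in 7.58% of UEIS KI and 12.8% of UEIS LSL cells, compared with 79.0% and 81.0% of macrophages.

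Across all cells the 5 members together gave 31.7 CPM (UMIs of the genes per 1000000 UMIs of the cells) in UEIS KI, from 2751 UMIs, and 73.8 CPM in UEIS LSL, from 5919 UMIs. The level in UEIS KI was 2.32-fold lower (2.22 to 2.43). CPM were not divided by length, since the 3' assay counts a molecule once whatever its length. Ifit1 was the most abundant member, at 13.2 CPM in UEIS KI and 37.5 CPM in UEIS LSL, and Ifit3 followed at 11.4 and 23.0 CPM. Ifit2 had 3.52 and 8.05 CPM, Ifit3b 2.48 and 3.65 CPM, and Ifit1bl1 1.15 and 1.53 CPM. Of the 5 members, 3 (Ifit1, Ifit2 and Ifit3) were lower by 1.5-fold or more with the interval below 1, as were 10.1% of all 14968 genes with at least 50 UMIs. Over the whole sample these sums mix the cell classes, which differ in number between libraries.

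The libraries differed in the number of cells with Ifit RNA, while the mean per such cell was close over all cells. At least 1 Ifit UMI was found in 490 UEIS KI cells (5.64%) and in 1092 UEIS LSL cells (12.6%). Those cells carried a mean of 5.61 Ifit UMIs in UEIS KI and 5.42 in UEIS LSL. By gate it was not always close: cDC2 with Ifit RNA averaged 2 UMIs in UEIS KI and 4.42 in UEIS LSL, fibroblast-gated cells 1.30 and 3.39, and monocytes 8.57 and 5.80. Most positive cells had very few, with medians of 1 and 2 UMIs. A small set held most of the family's RNA: 67 UEIS KI cells (0.771%) and 152 UEIS LSL cells (1.76%) had 10 or more Ifit UMIs and together carried 70.1% and 65.2% of them. The single richest cell held 123 Ifit UMIs in UEIS KI, 1.07% of its whole RNA, and 117 in UEIS LSL. The counting intervals treat UMIs as independent, so with RNA this concentrated they are narrower than the variation between cells would make them.

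**Figure D1:**
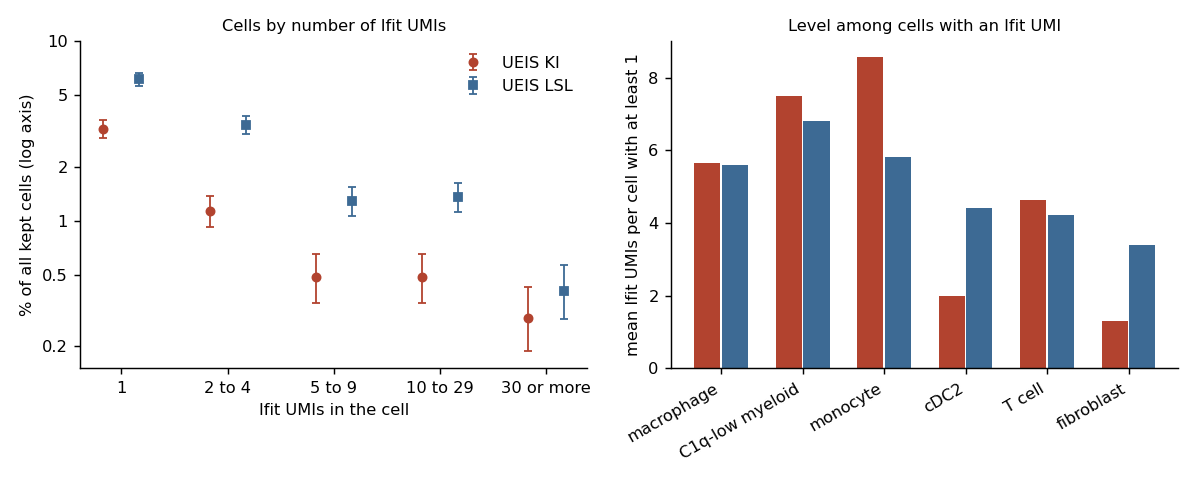
Left, the percentage of all kept cells (log axis) with 1, 2 to 4, 5 to 9, 10 to 29 or 30 or more Ifit UMIs, as points with 95% binomial intervals. Right, bars of the mean Ifit UMIs per cell among cells with at least 1, by gate. UEIS KI is red and UEIS LSL blue; UEIS KI had fewer cells in every bin (0.484% against 1.35% with 10 to 29 UMIs), while the mean per positive cell was close in macrophages (5.65 and 5.60 UMIs), lower in UEIS KI cDC2 (2 and 4.42) and higher in UEIS KI monocytes (8.57 and 5.80).

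Macrophages, the largest class with 4956 UEIS KI and 4745 UEIS LSL cells, had a summed Ifit level of 33.2 CPM in UEIS KI and 59.1 CPM in UEIS LSL, 1.78-fold lower in UEIS KI. An Ifit UMI was seen in 6.30% of UEIS KI and 10.6% of UEIS LSL macrophages, and in 1.86% and 3.31% once every cell was thinned to 1000 UMIs (54 and 35 shallower cells left out). Of the 5 members, 4 were at least 1.5-fold lower, beside 4.52% of the 12954 genes measured in this class. Ifit1 had 13.4 CPM in UEIS KI and 27.3 CPM in UEIS LSL (log2 ratio -1.03, -1.16 to -0.90). Ifit2 had 3.84 and 7.33 CPM (-0.93), Ifit3 12.5 and 19.7 CPM (-0.65), and Ifit3b 2.33 and 3.77 CPM (-0.69). Ifit1bl1 was the exception at 1.09 CPM in UEIS KI, from 58 UMIs in 25 cells, and 1.03 CPM in UEIS LSL, from 49 UMIs in 33 cells (0.08, -0.49 to 0.66). The direction for the class depended on how it was drawn: with clusters named from the same markers in place of gates, the log2 ratio of the sum was 0.015, against -0.83 with gates.

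C1q-low myeloid cells showed a larger gap. The 1951 UEIS KI cells had 25.04 CPM and the 1749 UEIS LSL cells 107.7 CPM, 4.30-fold lower in UEIS KI (3.90 to 4.75). All 5 members were at least 1.5-fold lower, where 4.68% of 11404 genes were. Ifit1 had 10.2 CPM in UEIS KI and 54.1 CPM in UEIS LSL, Ifit2 1.95 and 10.4 CPM, and Ifit3 9.52 and 36.1 CPM. Ifit3b moved less, with 2.69 and 4.68 CPM (log2 ratio -0.80, -1.33 to -0.27), than Ifit3 (-1.92, -2.16 to -1.69), within the limit on telling the copies apart. One UEIS KI cell held 18.2% of that library's Ifit UMIs in the class. The log2 ratio of the sum, -2.10, was -1.36 when both libraries were given the same mix of clusters and -0.98 without the Mmp12 and Hilpda state described next. Taken as one class, macrophages and C1q-low myeloid cells had 30.8 CPM in UEIS KI and 70.6 CPM in UEIS LSL, 2.29-fold lower, with 4 members lower by the same measure beside 4.82% of 13627 genes.

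**Figure D2:**
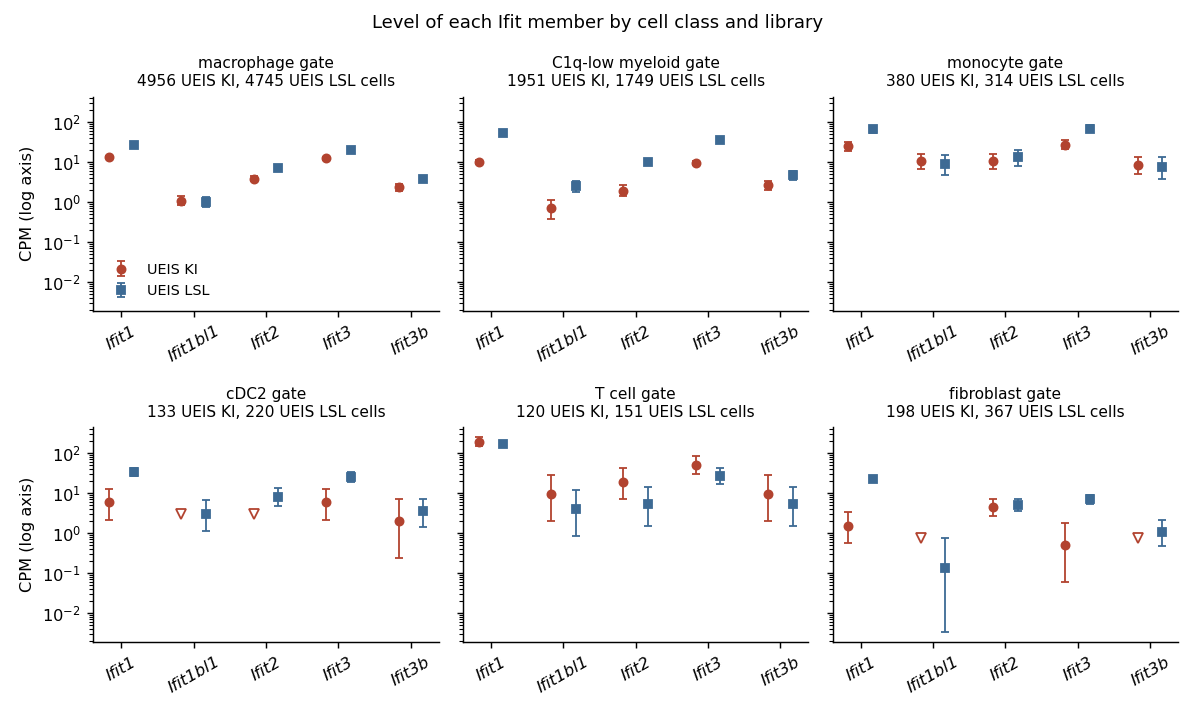
Level of each member in CPM (log axis) in the 6 gates with at least 100 cells per library, UEIS KI as red circles and UEIS LSL as blue squares, with exact 95% Poisson intervals; open triangles mark members with no UMI, drawn at the level of 3 UMIs. Ifit1 was lower in UEIS KI in every myeloid panel, such as 10.2 against 54.1 CPM in C1q-low myeloid cells, while in T cells it was 193 against 170 CPM.

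Within macrophages the gap was concentrated in one state. Macrophages with at least 10 UMIs of Mmp12 (a macrophage elastase) and Hilpda (a hypoxia-induced lipid droplet protein) per 10000 had 36.4 Ifit CPM in UEIS KI and 237 CPM in UEIS LSL, a log2 ratio of -2.70 (-2.92 to -2.49). Ifit RNA was seen in 35 of these 522 UEIS KI cells (6.70%) and in 94 of these 466 UEIS LSL cells (20.2%). The state made up similar shares of the gate, 10.5% in UEIS KI and 9.82% in UEIS LSL. It held 12.1% of macrophage Ifit UMIs in UEIS KI and 39.9% in UEIS LSL. The same state among C1q-low myeloid cells gave 34.6 CPM in 539 UEIS KI cells and 278 CPM in 530 UEIS LSL cells (-3.01, -3.25 to -2.77). In that class the gap was not particular to this state. C1q-low myeloid cells rich in Spp1 and Arg1 had 19.6 CPM in UEIS KI and 121 CPM in UEIS LSL (-2.63, -2.95 to -2.31). Those in none of the states had 31.7 and 48.1 CPM (-0.60, -0.83 to -0.37). The log2 ratio was -0.32 (-0.99 to 0.30) in those with Cxcl9 and 0.48 (-0.37 to 1.41) in those with Mki67 and Top2a.

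Other macrophage states differed less or not beyond counting error. Macrophages rich in Lyve1 and Folr2, markers of resident macrophages near vessels, had 58.5 CPM in UEIS KI and 103 CPM in UEIS LSL (log2 ratio -0.82). Those rich in Spp1 and Arg1 had 25.3 and 38.5 CPM (-0.60), and those with the proliferation genes Mki67 and Top2a had 19.1 and 32.2 CPM (-0.75). Cells with Cxcl9, a chemokine induced by interferon-gamma, had similar Ifit levels, at 76.0 CPM in UEIS KI and 80.3 CPM in UEIS LSL (-0.08, -0.45 to 0.27), although they were 1.94% and 7.82% of macrophages. Macrophages in none of these states, 1907 and 2796 cells, had 38.4 CPM in UEIS KI and 36.3 CPM in UEIS LSL (0.08, -0.06 to 0.22). A cell could meet more than one of these definitions, and their limits were set after the distributions were seen. With the Mmp12 and Hilpda cells left out, the macrophage log2 ratio was -0.27, against -0.83 with them. For single members it was -0.51 for Ifit1, -0.13 for Ifit3 and 0.07 for Ifit3b.

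**Figure D3:**
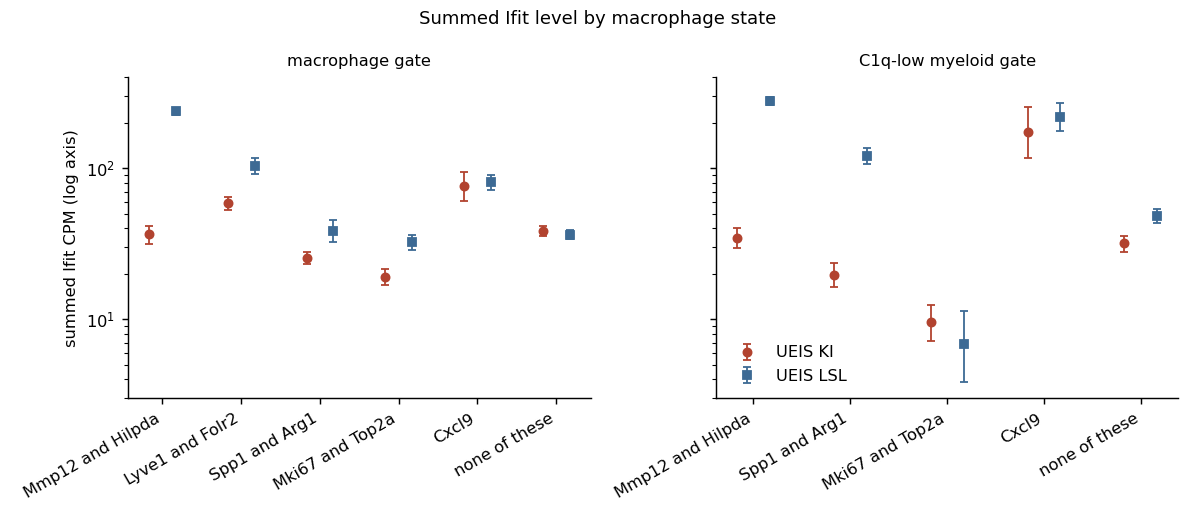
Summed Ifit level in CPM (log axis) of macrophages (left) and C1q-low myeloid cells (right) by state, UEIS KI as red circles and UEIS LSL as blue squares with exact 95% Poisson intervals. The Mmp12 and Hilpda state stands at 36.4 against 237 CPM in macrophages, and cells in none of the states at 38.4 against 36.3 CPM. Among C1q-low myeloid cells the Spp1 and Arg1 state stands at 19.6 against 121 CPM. The Lyve1 and Folr2 state is not drawn for C1q-low myeloid cells, of which 3 in each library met it.

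Clusters drawn without the listed interferon genes and symbols beginning with Ifit, Oas, Gbp, Ifi or Isg placed much of the UEIS LSL signal in cluster 1. Other interferon-induced genes could still enter the clustering. Mmp12 and Hilpda, which define the state above, also lead this cluster, so it is not separate support. Cluster 1, led by Mmp12, Mmp13, Cxcl3, Ero1a and Hilpda, had 63.0 CPM in 741 UEIS KI cells and 275 CPM in 1368 UEIS LSL cells. Rsad2, a listed interferon gene kept out of the clustering, was also among the leading genes of this cluster. The cluster held 14.5% of all Ifit UMIs in UEIS KI and 43.7% in UEIS LSL. It is led by the C1q-low gate, so naming whole clusters moved its cells out of the macrophage class. Some macrophage clusters ran the other way: cluster 4, led by Stab1, Ccl12 and Fcrls, had 72.1 CPM in UEIS KI, with 24.0% of its UMIs in 1 cell, and 8.39 CPM in UEIS LSL. Cluster 8, led by Cxcl9, had 66.1 and 31.4 CPM, with 42.5% of the UEIS KI UMIs in 1 cell.

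Monocytes had 81.9 CPM in UEIS KI and 166 CPM in UEIS LSL (log2 ratio -1.02, -1.31 to -0.74), the highest level of the myeloid gates with at least 100 cells in each library. Of the 2 members with enough UMIs to compare, both were lower, where 4.47% of 6334 genes were. Ifit1 had 25.02 CPM in UEIS KI and 67.1 CPM in UEIS LSL, and Ifit3 27.3 and 69.2 CPM. With clusters in place of gates the log2 ratios were -0.22 for the sum (-0.55 to 0.11), -0.28 for Ifit1 and -0.24 for Ifit3. The gated sums rested on 21 of 380 UEIS KI and 41 of 314 UEIS LSL monocytes. Among cDC2, the dendritic cells that present antigen to CD4 T cells, the sum was 13.8 CPM in UEIS KI and 73.9 CPM in UEIS LSL (-2.42, -3.33 to -1.63). Ifit1 and Ifit3 were again both lower, against 3.17% of 5830 genes, with 6 UMIs each in UEIS KI and 67 and 50 UMIs in UEIS LSL. Ifit1bl1 and Ifit2 were not seen in the 133 UEIS KI cDC2, which allows up to 2.26% of cells with a detected UMI, a limit on detection and not on expression. All conventional and mature dendritic cells together had 11.4 CPM in UEIS KI, from 17 UMIs, and 71.8 CPM in UEIS LSL, from 199 UMIs (-2.65, -3.46 to -1.94). This ratio was -1.21 with clusters and -4.47 after thinning to 1000 UMIs.

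T cells were the class with the most Ifit RNA per UMI in UEIS KI, and there the direction of the difference depended on the processing. The sum was 283 CPM in UEIS KI, from 88 UMIs in 19 of 120 cells, and 212 CPM in UEIS LSL, from 156 UMIs in 37 of 151 cells (log2 ratio 0.42, 0.02 to 0.80). A single UEIS KI cell held 34.1% of those UMIs, and without the richest cell of each library the log2 ratio was 0.08. Thinning to 1000 UMIs gave -0.29 and cluster names gave -0.36. Ifit1 was the 1 member measured, at 193 CPM in UEIS KI and 170 CPM in UEIS LSL (0.18, -0.28 to 0.64). It was called neither lower nor higher, as 8.80% and 8.96% of 3182 genes were. After thinning, an Ifit UMI was seen in 11.3% of UEIS KI and 13.1% of UEIS LSL T cells, above the 1.86% and 3.31% of macrophages.

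No class is known to lack Ifit RNA, so free RNA in droplets has no blank here, and its part in the T cell level was not tested. T cells held 8.42 C1q UMIs per 10000 in UEIS KI and 7.93 in UEIS LSL, against 121 and 118 in macrophages, a gap that the gates set, since T cells needed less than 30 and macrophages at least 30. Their median depths were 2024 and 2990 UMIs, against 9743 and 9149 in macrophages.

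The order of classes by CPM differed between libraries. In UEIS KI, T cells (227 to 348 CPM) stood above monocytes (70.4 to 94.7 CPM), which stood above macrophages (31.6 to 34.8 CPM) and C1q-low myeloid cells (23.0 to 27.2 CPM). The cDC2 (7.55 to 23.2 CPM) and fibroblast-gated cells (4.31 to 9.68 CPM) came last, with overlapping intervals. In UEIS LSL, T cells (180 to 248 CPM) and monocytes (146 to 189 CPM) overlapped, followed by C1q-low myeloid cells (102.5 to 113 CPM), cDC2 (62.4 to 86.9 CPM), macrophages (57.0 to 61.4 CPM) and fibroblast-gated cells (31.6 to 40.4 CPM). The cDC2 and macrophage intervals did not overlap in UEIS LSL, where macrophages were the lower of both. All these intervals cover counting error only, and the UMIs lay in few cells: 5 UEIS KI monocytes held 83.9% of that gate's Ifit UMIs. By share of thinned cells with an Ifit UMI, monocytes and macrophages were alike in UEIS KI (1.85% and 1.86%). In UEIS LSL the shares were 5.73% and 3.31%.

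Smaller classes gave few UMIs. NK cells had 4 Ifit UMIs in 2 of 19 UEIS KI cells and 72 in 7 of 22 UEIS LSL cells, of which 1 cell held 48.6%. Neutrophil-gated cells had 4 UMIs in 2 of 105 UEIS KI cells and 15 in 5 of 30 UEIS LSL cells. Mature dendritic cells had 3 UMIs in 2 of 62 UEIS KI cells and 49 in 10 of 92 UEIS LSL cells. No Ifit UMI was seen in 50 UEIS KI B cells, which allows up to 6.00% of cells with a detected UMI at their median depth of 1232 UMIs, and 16 of the 17 in UEIS LSL B cells came from 1 cell.

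The balance of the copies depended on cell class. Of the UMIs of Ifit1, Ifit3 and Ifit3b, Ifit1 made up 47.4% in UEIS KI macrophages (44.8 to 49.9) and 53.8% in UEIS LSL macrophages (51.8 to 55.8). In T cells it made up 75.9% in UEIS KI (65.0 to 84.9) and 83.9% in UEIS LSL (77.0 to 89.4). T cells thus carried Ifit1 with little Ifit3 in both libraries, and the intervals did not overlap those of macrophages. This lean was not particular to T cells. In UEIS LSL, Ifit1 made up 73.8% in fibroblast-gated cells (67.6 to 79.4), overlapping the T cell interval. In UEIS LSL NK cells it made up 85.1% (74.3 to 92.6), and 70.6% without the richest cell. UEIS KI gave too few of these UMIs in both classes. The UEIS KI value in T cells rests partly on 1 cell, which held 15 of the 16 Ifit3 UMIs. Without it Ifit1 made up 98.1%, and without the richest UEIS LSL T cell 89.0%. By cells, 14 of 16 UEIS KI and 25 of 36 UEIS LSL T cells with any of the 3 genes had Ifit1 alone, against 110 of 278 and 192 of 451 macrophages, which are sequenced more deeply.

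Other myeloid classes lay near macrophages, at 45.4% in UEIS KI and 57.0% in UEIS LSL for C1q-low myeloid cells and at 41.0% and 46.6% for monocytes. The share of Ifit1 was thus lower in UEIS KI in each of these classes, though the monocyte intervals overlapped (32.6 to 49.9 and 39.6 to 53.7). Barcodes with T cell markers but at least 30 C1q UMIs per 10000, which were kept out of both gates, leaned to Ifit1 as well. It made up 9 of 9 such UMIs in 22 UEIS KI barcodes and 114 of 125 (91.2%) in 77 UEIS LSL barcodes. Ifit3b made up 15.7% of Ifit3 and Ifit3b UMIs in UEIS KI macrophages and 16.1% in UEIS LSL macrophages. In C1q-low myeloid cells it made up 22.1% in UEIS KI (17.2 to 27.6) and 11.5% in UEIS LSL (9.04 to 14.3). A single cell held 18 of the 58 Ifit3b UMIs there in UEIS KI and 16 of the 69 in UEIS LSL. In monocytes Ifit3b made up 24.1% (15.1 to 35.0) and 10.0% (5.10 to 17.2), with overlapping intervals. These rest on few cells, since 1 cell held 14 of the 19 Ifit3b UMIs in UEIS KI and 5 of the 11 in UEIS LSL. Over all cells Ifit3b made up 17.9% (15.7 to 20.1) and 13.7% (12.3 to 15.2). This split rests on copies that may share reads.

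**Figure D4:**
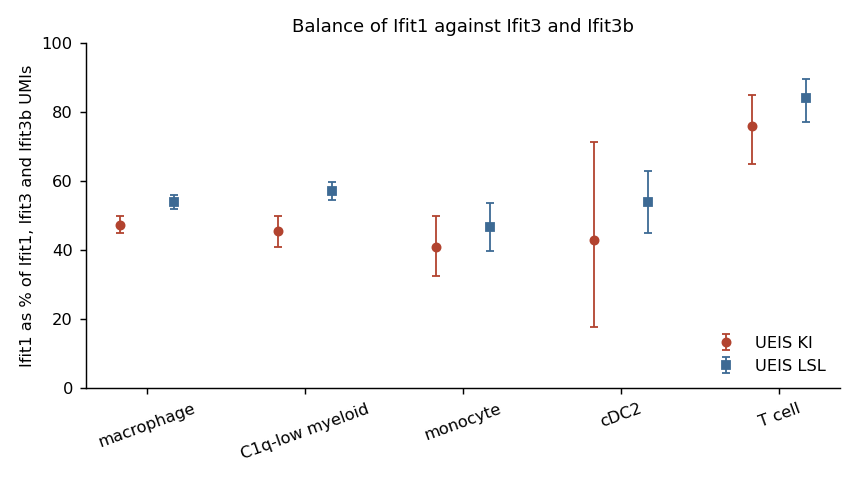
Ifit1 as a percentage of the UMIs of Ifit1, Ifit3 and Ifit3b in 5 gates, UEIS KI as red circles and UEIS LSL as blue squares, with exact 95% binomial intervals. T cells lie at 75.9% and 83.9%, above macrophages at 47.4% and 53.8%. Fibroblast-gated cells, at 73.8% in UEIS LSL, are not drawn.

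In fibroblast-gated cells Ifit2 had a smaller gap than Ifit1 and Ifit3, the other members measured there. Ifit1 had 1.52 CPM in UEIS KI, from 6 UMIs, and 22.6 CPM in UEIS LSL, from 169 UMIs (log2 ratio -3.89, -5.36 to -2.74). Ifit3 had 0.508 and 6.95 CPM (-3.77). Ifit2 had 4.57 CPM in UEIS KI and 5.08 CPM in UEIS LSL (-0.15, -1.05 to 0.69). Of the 3 members measured, 2 were thus at least 1.5-fold lower, beside 6.43% of 10686 genes. The clusters led by this gate differed in size between libraries. Cluster 16, led by Crabp1, Rhox5 and Hmga2, had 133 UEIS KI and 36 UEIS LSL cells, cluster 19, led by the collagen genes Col1a2 and Col1a1, had 32 and 97 cells, and cluster 12, led by Tm4sf1, Crip2 and Ccn1, had 107 and 318 cells. Cluster 19 held 2 Ifit1 UMIs in UEIS KI and 97 in UEIS LSL. Of these clusters only cluster 19 had collagen genes among its leading genes, so the values are for a gate that pooled unlike cells. Giving both libraries equal cluster shares put Ifit1 at -3.75, Ifit3 at -2.76 and Ifit2 at 0.21 on the log2 scale. Ifit2 was also spread differently: its UMIs lay in 16 of 198 UEIS KI and 34 of 367 UEIS LSL cells, at 1.12 UMIs per positive cell in each library, while the 6 and 169 Ifit1 UMIs lay in 3 and 34 cells. These cells were the deepest, with medians of 16810 and 18127 UMIs. After thinning to 1000 UMIs, no Ifit UMI remained in 197 UEIS KI cells, which allows a share of up to 1.52%. In UEIS LSL, 8 of 361 thinned cells held an Ifit UMI (2.22%, 0.96 to 4.32). That interval overlaps the exact one for UEIS KI (0 to 1.86).

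Members were found in the same cells. Among macrophages thinned to 1000 UMIs, Ifit3 was seen in 28.3% of 53 UEIS KI cells with Ifit1 and in 0.557% of those without it. In UEIS LSL it was seen in 16.8% of 95 cells with Ifit1 and in 0.953% of those without. In 38 of 40 ordered pairs, counted over both libraries, a member was seen more often in cells that held the other. Both orders of a pair always go the same way, so the 40 are not separate results. The exceptions were Ifit1bl1 with Ifit2 in UEIS LSL in both orders, where thinning left 3 cells with Ifit1bl1. Without thinning, 19 of 33 UEIS LSL macrophages with Ifit1bl1 held Ifit2 (57.6%). Of all cells, 11 UEIS KI and 18 UEIS LSL cells held all 5.

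Without thinning, co-detection with Ifit1 was close in both libraries for 2 members. Ifit3 was seen in 39.1% of UEIS KI and 38.7% of UEIS LSL macrophages with Ifit1, and Ifit2 in 27.2% and 26.8%. Ifit1bl1, the rarest member, was seldom seen alone: 23 of 25 UEIS KI and 25 of 33 UEIS LSL macrophages with it also held Ifit3. Other pairs lay further apart, with overlapping intervals: Ifit1 was seen in 67.4% of UEIS KI and 81.0% of UEIS LSL macrophages with Ifit3b, and Ifit3b in 36.0% and 54.5% of those with Ifit1bl1. Ifit3 was seen in 73.9% and 74.7% of macrophages with Ifit3b, a pair that may share reads. Of cells with Ifit RNA, 95 of 312 UEIS KI and 168 of 501 UEIS LSL macrophages held 2 or more members, and 4 of 19 UEIS KI and 9 of 37 UEIS LSL T cells did, at their lower depth.

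**Figure D5:**
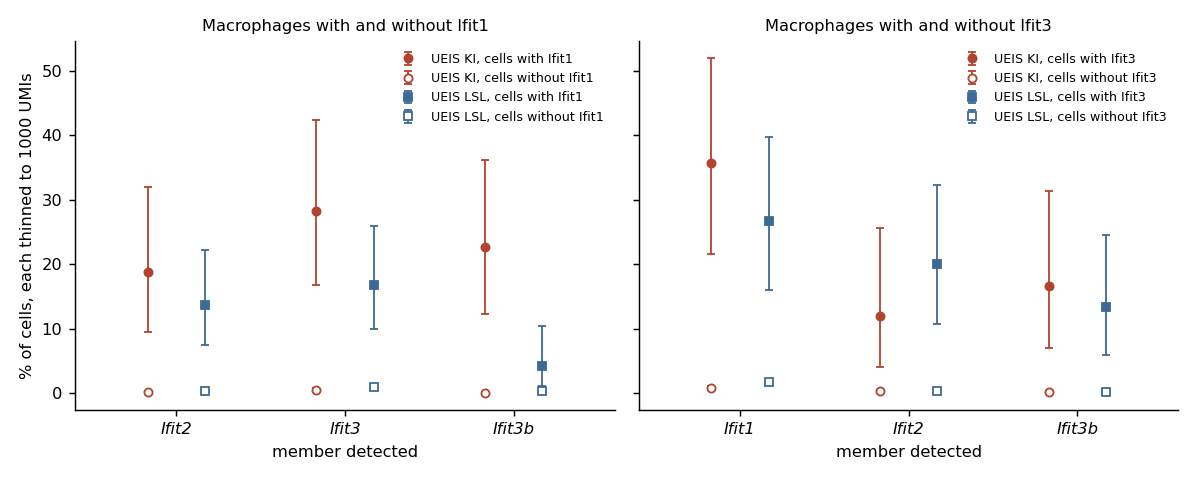
Percentage of macrophages, each thinned to 1000 UMIs, in which another member was detected, among cells with (filled) and without (open) Ifit1 (left) or Ifit3 (right), with exact 95% binomial intervals. UEIS KI is red and UEIS LSL blue; Ifit3 was seen in 28.3% and 16.8% of cells with Ifit1, against 0.557% and 0.953% of cells without it.

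The genes most like the family are described without a test. Over the 12 points of 6 gates in 2 libraries, which share library and depth, the log2 level of the sum followed Isg15 (Pearson r = 0.96), Plekhj1 (0.96), Gm12250 (0.92), Rsad2 (0.91) and Slfn8 (0.91) most closely of 12334 genes. Isg15 is a ubiquitin-like modifier and Rsad2 the antiviral enzyme viperin, both classic interferon targets. Plekhj1 varied little, between 80.0 and 138 CPM, whereas Isg15 ran between 16.5 and 458 CPM. Among members, Ifit1 followed the sum best (0.98) and Ifit2 least (0.73), and each of them is part of that sum. Cell by cell in thinned macrophages, the genes most often found with Ifit RNA were Rsad2, Isg15, Ifi211, Cxcl10 and Usp18. Rsad2 was seen in 27.5% of UEIS KI macrophages with Ifit RNA and 0.644% of the others, and in 31.4% and 1.60% in UEIS LSL.

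The wider interferon programme moved with the family, and these lists describe the same libraries and are not independent support. Of 43 type I interferon-induced genes measured in macrophages, 23 lay 1.5-fold or more below UEIS LSL and 0 above it, where 4.52% and 5.53% of all genes did, with a median log2 ratio of -0.61 against 0.03 over all genes. Cxcl10, a T cell attractant, had 120 CPM in UEIS KI and 275 CPM in UEIS LSL, and Oas1g, an antiviral synthetase of oligoadenylates, had the lowest ratio of the list at 0.677 and 2.001 CPM. The list was not uniform: Ifi27l2a had 754 and 681 CPM, and Ifitm3 732 and 1075 CPM. In C1q-low myeloid cells 37 of 42 genes were lower (median -1.25), beside 4.68% of all genes, and in monocytes 31 of 38 were (-1.08), beside 4.47%. In cDC2 14 of 27 were lower and 1 higher (-0.71), beside 3.17% lower, and in fibroblast-gated cells 19 of 28 were lower (-0.81), beside 6.43%. In T cells 8 of 17 were lower (-0.59), beside 8.80%. The T cell list was thus lower at its median where Ifit1 was not.

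Of 26 interferon-gamma-induced genes measured in macrophages, 24 were lower and 1, the nitric oxide synthase Nos2, was higher (median -1.30). Of all 12954 genes measured there, 4.52% were lower and 5.53% higher, with a median of 0.03. Cd74, the invariant chain of MHC class II, had 2945 CPM in UEIS KI and 11689 CPM in UEIS LSL. Serpina3g had the lowest ratio, at 1.88 and 13.3 CPM. A list of 18 genes held interferon signalling genes, the interferon-gamma route included, and factors that act on Ifit promoters. Of these, 7 were lower and none higher (median -0.38), beside the same shares of all genes. This list shares genes with both lists above, so its lower genes are partly counted there too. Stat2 had 11.6 CPM in UEIS KI and 17.9 CPM in UEIS LSL, and Irf9 22.6 and 35.8 CPM. Irf3, which can induce Ifit genes without interferon, had 23.1 and 24.4 CPM. The receptor gene Ifnar2 had 117 and 137 CPM, and the kinase gene Jak1 112 and 113 CPM.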

How the data were processed

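Gene expression in CD45+ cells of MC38 tumours was measured with the 10x Genomics 3' v3 assay, 1 library per group. The deposited matrices hold raw UMI counts per gene and barcode, made by the authors with Cell Ranger: version 2.1.1 and build mm10 per the submitters' processing notes, version 8.0.1 per the file headers. The annotation and the handling of reads shared by paralogs are not given in the sources used here. Of 55357 identifiers, 52081 (94.1%) matched GENCODE vM21.

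Barcodes needed 500 UMIs and 200 detected genes, those above 10% mitochondrial UMIs were dropped, and the highest Scrublet scores (0.8% per 1000 barcodes; 758 and 726 in UEIS KI and UEIS LSL) were left out. The kept cells held 94.4% and 89.5% of Ifit UMIs. Lymphoid, dendritic, neutrophil and fibroblast gates needed 3 markers and 10 marker UMIs per 10000, and monocytes 4 and 30, all with C1q under 30 per 10000. Gate and state limits were set after marker distributions were seen, and the members and gene lists were chosen with earlier results of these data known. Clusters used 2000 variable genes, 30 components, 15 neighbours and Leiden resolution 1 (scanpy 1.11.5). The listed interferon genes and symbols beginning with Ifit, Oas, Gbp, Ifi or Isg were left out of those genes, and other interferon-induced genes were not.

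CPM are UMIs of a gene over all UMIs of the class, with exact Poisson intervals; shares have Clopper-Pearson and ratios conditional binomial intervals (scipy 1.17.1). Genes with at least 50 UMIs over both libraries counted as measured. The ratio steps were run on simulated independent counts. These lack the concentration of Ifit UMIs in few cells, so they cannot show how the intervals hold under it. All 5 members are named. From each gene list the 4 genes with the most UMIs in macrophages and the highest and lowest ratio were eligible, and Stat2, Irf9 and Irf3 were named after their values were seen, for their role. Some items are not reported here. Likeness took genes with at least 200 UMIs. Where a count was 0, 3 counts set the upper limit. Alternatives covered class definition, cluster mix, cell weighting, thinning, quality limits, doublets and scaling.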

Additional observations from a re-analysis of the deposited data

Results flagged for a closer look

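The summed Ifit level had a log2 ratio of UEIS KI over UEIS LSL of 0.42 in T cells and of -0.83 in macrophages, so with gates and all UMIs the classes lay on opposite sides of 0 under the same comparison. The difference between classes was not tested, since each group is 1 library. In T cells 34.1% of the UEIS KI UMIs came from 1 cell, and without the richest cell of each library the ratio was 0.08. Thinning to 1000 UMIs put both classes below 0, at -0.29 in T cells and -0.57 in macrophages, and clusters in place of gates gave -0.36 and 0.015.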

How the results depend on the processing

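Of 377 recomputed values, 292 stayed within the counting interval of the reported one or within a margin whose size is not given here. Another 76 moved outside these limits, and 9 changed sign where the reported interval lay on 1 side of 0. Counting values whose interval held 0 as well, 17 changed sign. With clusters in place of gates, the log2 ratio of the sum was 0.015 in macrophages, 0.10 for Ifit3 and 0.38 for Ifit3b there, -0.36 in T cells, -0.22 in monocytes and -1.21 in dendritic cells. For macrophages the Mmp12-led cluster left the class under this naming, and how much of the change this accounts for was not tested. Thinning to 1000 UMIs gave -0.57 in macrophages, -0.29 in T cells and -4.47 in dendritic cells; the cause of the T cell change was not tested. In macrophages, weighting every cell alike gave -0.57, the same mix of clusters -0.68 (-0.71 in monocytes) and keeping doublets -0.95. Alternatives added after the data were seen gave -0.97 and -0.65 with C1q limits of 20 and 45 per 10000. Without the Mmp12 and Hilpda cells the sum in macrophages was -0.27. For Ifit3b this gave 0.069 in macrophages, 1.77 in C1q-low myeloid cells and 0.29 in both together, and the same mix of clusters gave 0.042 for Ifit1bl1 in both together.

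No paired analysis was possible because each group has 1 library. For the same reason leaving out a replicate was not possible. Animal, tumour, sorting and library differences cannot be told apart from the groups. Where members had few UMIs, such as 6 of Ifit1 in UEIS KI cDC2, differences smaller than the stated intervals were not detectable at this depth.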

Other observations

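Cells with RNA of Ifnb1, the gene of interferon beta, often held Ifit RNA. An Ifit UMI was seen in 8 of 11 UEIS KI cells with Ifnb1 (72.7%) and in 5.56% of the others, and in 12 of 24 UEIS LSL cells with Ifnb1 and in 12.5% of the others. The median depth of Ifnb1 cells was 6081 UMIs in UEIS KI and 9066 in UEIS LSL, against 8642 and 7890 in the others. Over all cells Ifnb1 gave 31 UMIs in UEIS KI and 96 in UEIS LSL, and Ifng, the gene of interferon-gamma, gave 83 and 730.

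Ifit1bl2, which starts opposite Ifit1 and whose RefSeq window holds the same pair of response elements, gave 10 UMIs in 9 UEIS KI cells and 13 in 12 UEIS LSL cells, while Ifit1 gave 1142 and 3009 UMIs. The UEIS LSL cell with the most Ifit RNA was gated as a macrophage but lay in cluster 20, which is led by the NK cell gate. It held 28825 UMIs, of which 117 were Ifit, 106 Isg15, 122 Rsad2 and 4 Ifnb1, and was not among the called doublets. Cluster 20 as a whole had 33.4 CPM in UEIS KI and 653 CPM in UEIS LSL, and this 1 cell held 52.5% of its UEIS LSL Ifit UMIs.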
